A study of Caenorhabditis elegans with 2 samples.

Results

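The Hox genes of Caenorhabditis elegans are 6 homeodomain transcription factor genes, ceh-13, lin-39, mab-5, egl-5, php-3 and nob-1. They were taken by name, as the Hox family, out of 19973 protein-coding genes on the 6 nuclear chromosomes in Ensembl release 115 of the WBcel235 assembly. All 6 lie on chromosome III. LIN-38 was mapped by ChIP-seq, the sequencing of DNA recovered with a chromatin protein, in 2 biological replicates of 1 group. Both replicates were whole L4 larvae of strain RW12236, 48 hours old and synchronised by starvation at L1 after bleaching. They carried the CRISPR allele st12236, lin-38::TY1::EGFP::3xFLAG, at the endogenous lin-38 locus on chromosome II, and chromatin was recovered with an anti-GFP antibody. There was no second genotype, stage or treatment, and control libraries were not analysed here.

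Hox proteins are transcription factors that give cells along the body axis their regional identity, and they often bind DNA together with PBC and MEIS homeodomain cofactors. In the worm the genes form 3 loosely linked pairs. lin-39 acts in the midbody, where it keeps the vulval precursor cells competent and is needed again for vulval fates. mab-5 acts in the posterior body and in migrating Q neuroblast descendants, egl-5 in the tail, ceh-13, the labial homologue, mainly in anterior cells and the embryo, and php-3 and nob-1, both Abdominal-B-like, in the posterior of the embryo. LIN-38 belongs to the synMuv A genes, which act redundantly with the synMuv B genes to stop cells from taking ectopic vulval fates.

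The values are the authors' own signal value per peak, a height score whose scaling is not given in the sources used here. No read counts were in the files, so the depth of both samples is unknown. Peaks were ranked by the irreproducible discovery rate (IDR). This is the global IDR, the expected share of peaks at that rank or better that do not repeat between a pair of inputs. The conservative list made from both replicates held 5405 nuclear peaks at an IDR of at most 0.01, with a median signal value of 211 and a 10th percentile of 103. The longer series list that contains it held 56082 ranked nuclear peaks at any IDR, which are called candidates here. Values per replicate are from the overlapping peak in that replicate's own ranked list, and a signal value of a series list is not on the scale of a single replicate.

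No Hox gene had a LIN-38 peak at its promoter. In windows reaching 500 bp before and 200 bp past each annotated 5′ end, 0 of 6 Hox genes had a summit in the conservative list, against 14.6% of all protein-coding genes. The same count was 0 of 6 in the other thresholded list of the series (14.7% of all genes), in replicate 1's own list (13.2%) and in replicate 2's own list (13.1%). Of the 2640 protein-coding genes on chromosome III, where all 6 Hox genes lie, 23% had a conservative promoter peak. No test was made, since the genes were proposed with results of these data known. In whole animals, binding in few cells and weak binding in many cells cannot be told apart.

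Counting the gene body and 5 kb to each side, 1 of 6 Hox genes, mab-5, had a conservative summit, against 40.7% of all protein-coding genes and 60% of those on chromosome III. In replicate 1's list it was again mab-5 alone (38.1% of all genes). In the other thresholded series list and in replicate 2's list, mab-5 and egl-5 had 1 summit each, against 40.9% and 37.8% of all genes. The windows of the 6 genes together covered 79.9 kb. They held 1 conservative summit, or 1.25 per 100 kb, against 5.39 in the nuclear genome and 8.1 on chromosome III. Replicate 1's list also gave 1.25 per 100 kb, against 4.42 in the genome. With 1 more site, the rate was 2.5 in the other thresholded series list and in replicate 2's list, against 5.54 and 4.46. The other homeobox genes named ceh, 62 in number, had a promoter peak at 6 genes and a summit within 5 kb at 22.

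**Figure D1:**
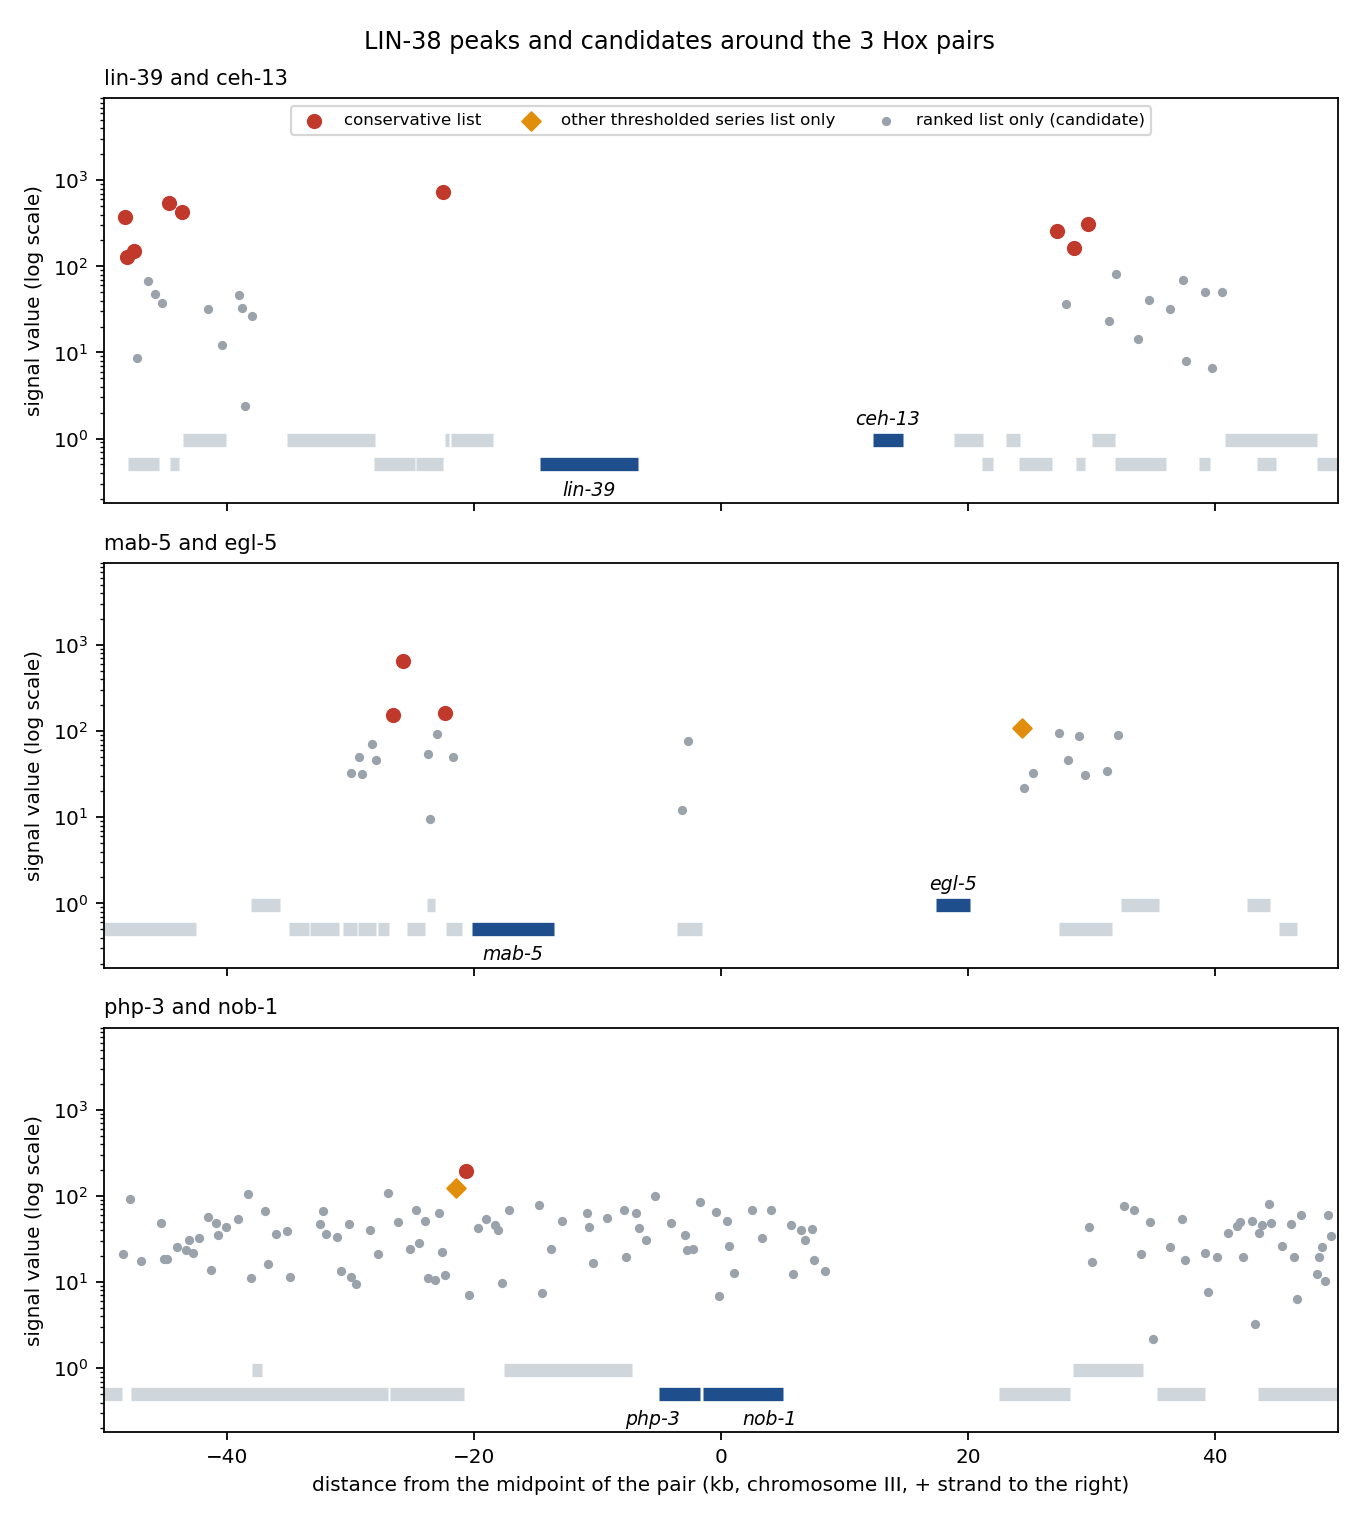
Signal value on a log axis against distance in kb from the midpoint of each Hox pair, for conservative peaks (red circles), peaks of the other thresholded series list only (orange diamonds) and ranked candidates (grey). Bars at the foot of each panel are genes, Hox genes in blue, upper row plus strand and lower row minus strand; their height carries no value. No red point lies on a Hox gene, no point lies on or between lin-39 and ceh-13, and grey points run across php-3 and nob-1 and on towards lower coordinates.

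The peak near mab-5 was modest in height and had its summit beyond a neighbouring gene. mab-5 (WBGene00003102) spans 7776835 to 7783454 on the minus strand. The peak ran from 7774450 to 7774825, with its summit at 7774638, which is 2197 bp past the 3′ end of mab-5 and 8816 bp from its 5′ end. Between the summit and mab-5 lies bath-15, a gene of the BTB and MATH domain family. The summit itself was intergenic, between the 3′ ends of ZK686.1 and bath-15. The signal value was 162.4, below the median of the list and rank 3371 of 5405. Replicate 1 had 98.6 and replicate 2 had 78.0, a log2 ratio of 0.34, and the peak was in both replicates' own thresholded lists. The spread of this ratio over 5342 conservative peaks was 0.40 (SD, median 0.04), so the replicates differed here by less than that spread.

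The sequence under this peak and that under the egl-5 peak described next are shown because they are the only thresholded sites within 5 kb of a Hox gene in any of the lists. They were read from the plus strand of WBcel235 (RefSeq) and stop where an annotated exon begins. Capitals mark 21 bases centred on the summit.
mab-5 peak, chrIII:7774563-7774676: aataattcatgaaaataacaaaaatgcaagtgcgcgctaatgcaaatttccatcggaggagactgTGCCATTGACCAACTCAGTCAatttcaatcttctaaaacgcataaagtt
egl-5 peak, chrIII:7821270-7821420: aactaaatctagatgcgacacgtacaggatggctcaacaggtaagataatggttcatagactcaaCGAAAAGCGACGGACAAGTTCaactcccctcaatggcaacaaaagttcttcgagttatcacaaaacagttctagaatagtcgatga

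Of 8 sequence patterns searched on both strands in 100 bp windows at these summits, 0 were found at either. The patterns were TGATNNAT, the PBC and Hox composite site, present in 4.14% of all 5405 conservative windows, the CHR-like hexamers TTTGAA (21.4%), TTCGAA (6.59%) and TTTAAA (11.3%), the E2F-like GCGCGAA (3.7%), GAGAGA (14.9%), TATAAA (6.29%) and CTGCGTC (6.68%). No match says only that these letters are not in these windows.

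The egl-5 peak was in some lists and not in others. egl-5 (WBGene00001174) spans 7814374 to 7817141 on the plus strand. The summit was at 7821345, in a peak from 7821157 to 7821532. It lay 4204 bp past the 3′ end of egl-5, in intergenic DNA between the 3′ ends of egl-5 and egl-45. The summit was nearer to egl-45 than to egl-5. In kb from the midpoint of mab-5 and egl-5, it was at 24.36, with the 3′ end of egl-5 at 20.15 and that of egl-45 at 27.39. The peak is named here after egl-5 only because that is the Hox gene within 5 kb. egl-45 encodes a subunit of translation initiation factor eIF3. The signal value of the peak was 108.9. In the ranked list behind the conservative list its IDR was 0.277, outside the threshold of 0.01, and in the other ranked series list it was 0.00167. Replicate 1 had 40.6 and replicate 2 had 94.9, a log2 ratio of -1.22. Replicate 2's own thresholded list held it and replicate 1's did not, so the higher value and the call went together.

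Among ranked candidates the 3 pairs had very different counts. ceh-13 and lin-39 had 0 candidates within 5 kb in the series list, mab-5 had 5, egl-5 had 2, php-3 had 19 and nob-1 had 22. Some of these lay within 5 kb of both php-3 and nob-1, so the pair had 27 distinct candidates together. The median was 3 over all protein-coding genes and 12 over the 2640 genes on chromosome III. Of all protein-coding genes, 40.7% had no candidate within 5 kb, as did 17.2% of those on chromosome III. In each replicate's own ranked list the order was similar. ceh-13 had 0 in both, and mab-5 had 9 in replicate 1 and 6 in replicate 2. In the same order of replicates egl-5 had 4 and 2, php-3 had 20 and 21, and nob-1 had 24 and 24. lin-39 was the exception, with 8 candidates in replicate 1 and 0 in replicate 2; 36.8% and 36.9% of all genes had none in these lists.

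**Figure D2:**
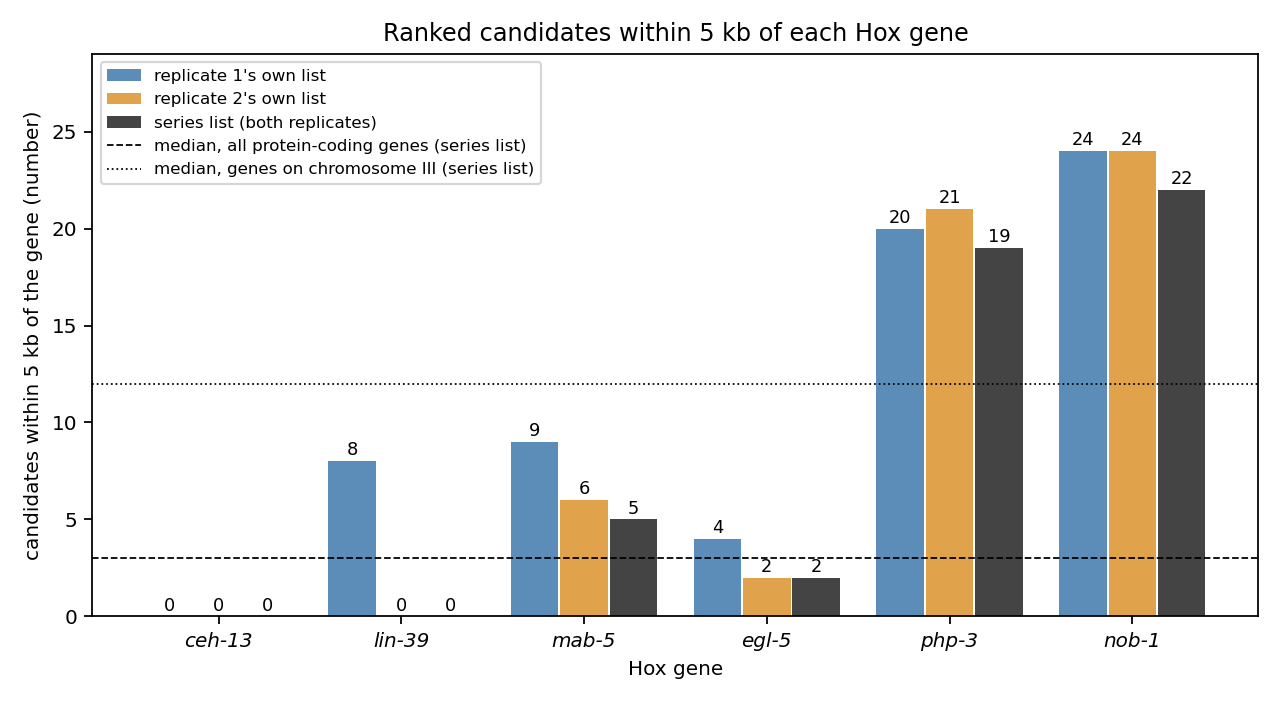
Number of ranked candidates within 5 kb of each Hox gene in replicate 1's own list (blue), replicate 2's own list (orange) and the series list made from both (dark grey), 1 value per list with no error bar. The dashed line is the median of all protein-coding genes, 3, and the dotted line that of genes on chromosome III, 12, both in the series list. php-3 and nob-1 stand above both lines in each list, and ceh-13 is at 0 in each.

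ceh-13 (WBGene00000437, 7555660 to 7558041, plus strand) and lin-39 (WBGene00003024, 7528641 to 7536632, minus strand) lie 19.0 kb apart with no protein-coding gene between them. Both sat whole inside a stretch of 49.7 kb without a single candidate in the series list, from 7520841 to 7570508. The stretch was the same length in replicate 2's own list, and in replicate 1's it was 38.3 kb and held ceh-13 and 55% of lin-39. Stretches this long were not rare: 324 of 56088 were at least as long in the series list, and together they made up 27.9% of the nuclear genome. Both ends of the stretch were thresholded peaks of other genes. At the lin-39 side this was a peak of signal value 735 (342.1 in replicate 1 and 395.0 in replicate 2) in the promoter windows of cux-7 and C07H6.2, 7800 bp from lin-39. At the ceh-13 side it was one of 255.2 (103.8 in replicate 1 and 150.0 in replicate 2) in the promoter window of R13A5.7, 12467 bp from ceh-13.

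The 8 candidates that replicate 1 alone had near lin-39 were weak. Their signal values were between 8.0 and 33.4, against a 10th percentile of 65.9 in that replicate's thresholded list. The lowest IDR among them was 0.422. Of these, 3 lay in lin-39 introns, 1 in its 3′ untranslated region and 4 in the intergenic DNA past its 3′ end, and 0 lay in a lin-39 promoter window.

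mab-5 and egl-5 are 30.9 kb apart with 1 protein-coding gene, cyk-7, between them. In the series list mab-5 lay inside a candidate-free stretch of 18.5 kb and egl-5 inside one of 27.1 kb. All 5 candidates near mab-5 were on its 3′ side. Besides the thresholded peak, they were 1 in an intron of bath-15 (signal value 49.8), 1 between ZK686.1 and bath-15 (93.8), and 2 in promoter windows shared by ZK686.6 and ZK686.1 (54.6 and 9.6), so that each was nearer to another gene. No candidate of the series list lay in the body or the promoter of mab-5 or egl-5. Replicate 1's own list had 4 in mab-5 introns, with signal values of 6.3 to 26.2, and replicate 2's had 0.

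php-3 (WBGene00004024, 12074218 to 12077556) and nob-1 (WBGene00003779, 12077793 to 12084316) are both on the minus strand and 236 bp apart, 4.26 Mb from egl-5. Their surroundings held many candidates and no thresholded peak in any of the 4 thresholded lists. The 27 candidates had signal values of 6.9 to 100.8, with a median of 39.9, close to the median of 37.3 over all 56082. All 27 were below the 10th percentile of the conservative list, and 9 were at the lowest score the list gives, as were 41.8% of all candidates. Where candidates overlapped, they formed 18 separate regions.

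The density at this pair was 1.42 candidates per kb for php-3 and 1.33 for nob-1, against a median of 0.95 on chromosome III and 0.26 over all protein-coding genes. Of all genes, 14.4% had a density at least that of nob-1. Having such a density and no conservative summit within 5 kb was the case for 2.29% of all genes, or 15.9% of the dense ones. This comparison was chosen after the values were seen and carries no test. The density extended past both genes on the side of lower coordinates, where it was higher than at the pair. The 50 kb there held 79 candidates and 1 conservative summit, or 158 candidates per 100 kb. The 50 kb on the side of higher coordinates held 45 and 0, or 90 candidates per 100 kb. The stretch from php-3 to nob-1 itself had 129 per 100 kb, and chromosome III as a whole had 89.3.

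By position, 14 of the 27 candidates were in introns, 11 between genes and 2 in promoter windows, 1 of php-3 and 1 of nob-1. The intronic ones include those at 12069994, 12071399 and 12071603, which lie in the neighbouring gene zyg-8 and not in a Hox gene. Shares by position over all candidates were not counted, so these numbers do not set the pair apart. Besides php-3 and nob-1, no Hox gene had a promoter candidate. This made 2 of 6, against 34.8% of all protein-coding genes and 56.4% of those on chromosome III. At php-3 the promoter candidate had its summit at 12077586, 30 bp upstream of the 5′ end, in the gap between both genes. Its signal value was 85.3, with 44.6 in replicate 1 and 41.1 in replicate 2, a log2 ratio of 0.12. Its IDR was 0.0273 in the ranked list behind the conservative list and 0.585 in the other ranked series list. At nob-1 the promoter candidate was at 12079728, in an intron of the longer transcript and 293 bp upstream of the internal 5′ end. Its signal value was 51.2 and its IDR 0.251. Replicate 1 had 25.4 and replicate 2 had 24.3.

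Within the gene bodies, php-3 had 4 candidates and nob-1 had 8 in the series list, against 0 in each of the other Hox genes. In replicate 1's own list, lin-39 and mab-5 also had weak candidates in the gene body, as given above. The share of all protein-coding genes with a candidate in the body was not counted. All 4 in php-3 and 7 of the 8 in nob-1 were in introns outside promoter windows. The highest in nob-1 were at 12081763, with 68.8 (39.9 in replicate 1 and 26.1 in replicate 2), and at 12083287, with 68.1 (38.9 in replicate 1 and 31.9 in replicate 2). The one at 12078878 had 64.7, with 32.1 in replicate 1 and 33.0 in replicate 2. Upstream of the distal nob-1 5′ end the nearest candidate of the series list was 594 bp away, at 45.9, outside the promoter window. Each replicate's own ranked list had a candidate inside that window. It was 390 bp upstream at 8.1 in replicate 1, and 395 bp upstream at 30.9 in replicate 2. None of these passed the IDR threshold, the lowest value among them being 0.106.

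The strongest candidate at the pair lay past the 3′ end of php-3 by 281 bp, with its summit at 12073937. Its height was 100.8 in the series list. Replicate 1 had 43.3 and replicate 2 had 46.1, a log2 ratio of -0.09. In the ranked list behind the conservative list its IDR was 0.0173. This was the nearest to the threshold of 0.01 among all Hox candidates outside it there, but in the other ranked series list it was 0.523. At both php-3 sites the replicates' values were nearly equal, while the rank they received differed between the lists. Their sequences are shown as the Hox sites outside the threshold that came closest to it in the ranked list behind the conservative list. In the other ranked series list the closest such candidate was the one in nob-1 at 12078878, with an IDR of 0.118. Capitals again mark 21 bases centred on the summit of each php-3 site.
php-3 promoter candidate, chrIII:12077557-12077661: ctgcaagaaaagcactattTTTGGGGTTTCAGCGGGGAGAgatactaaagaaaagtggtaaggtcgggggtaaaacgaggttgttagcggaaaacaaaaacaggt
php-3 downstream candidate, chrIII:12073862-12074012: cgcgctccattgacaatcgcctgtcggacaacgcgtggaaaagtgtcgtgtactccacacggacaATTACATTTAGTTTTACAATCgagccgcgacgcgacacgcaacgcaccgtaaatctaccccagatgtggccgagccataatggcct

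The only one of the 8 patterns found in these windows was GAGAGA, once, starting 7 bp after the php-3 promoter summit on the plus strand. The downstream sequence had a GC content of 53.6% and the promoter one 43.8%, against 36% at the mab-5 peak and 41.1% at the egl-5 peak. These values are over the printed stretches, of 151, 105, 114 and 151 bp in the same order. The median at all conservative summits was 45.0%, but over 100 bp windows, so the measures differ.

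**Figure D3:**
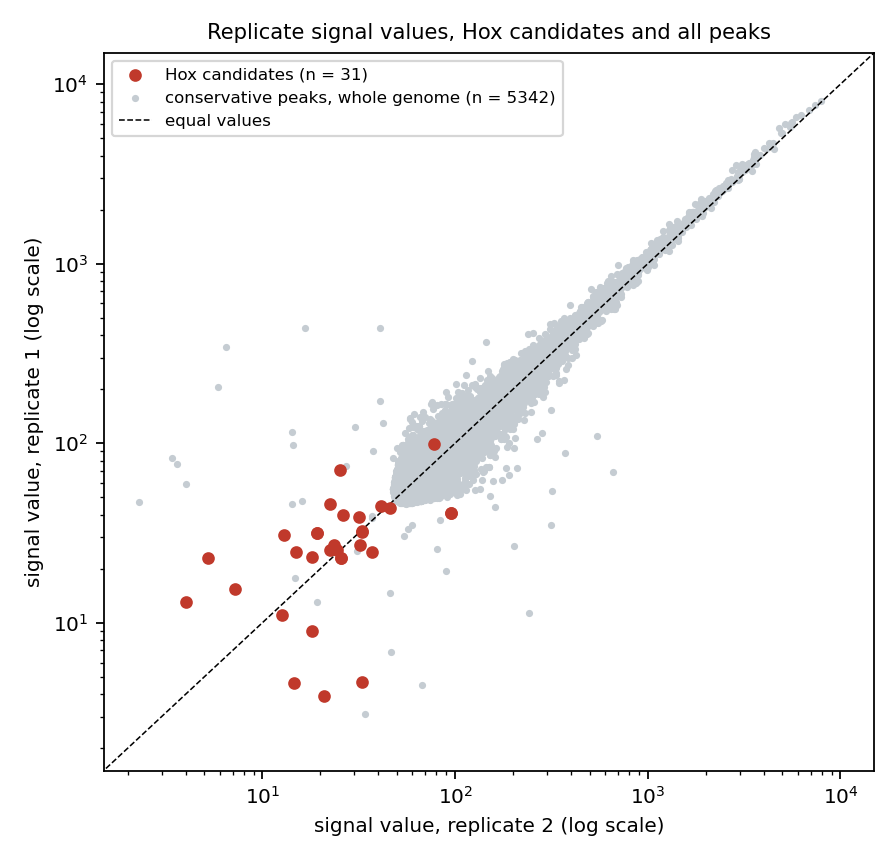
Signal value in replicate 1 (vertical) against replicate 2 (horizontal), both on log axes, for the 31 Hox candidates with a value in both replicates (red) and 5342 conservative peaks (grey); the dashed line marks equal values. Nearly all Hox candidates lie below the body of the conservative peaks, and the uppermost is the mab-5 peak, at 98.6 in replicate 1 and 78.0 in replicate 2.

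Of the 34 Hox candidates, 31 had a value in both replicates, in 28 distinct pairs of values, since overlapping candidates can meet the same replicate peak. Their log2 ratio of replicate 1 over replicate 2 had a median of 0.12 and an SD of 1.11, with a lowest value of -2.81 and a highest of 2.14. The SD over conservative peaks was 0.40. The candidates were also weaker than those peaks, and the part of low signal in the wider spread was not tested.

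The 5 kb limit left out some nearby peaks. Just outside it, snu-23, a splicing factor gene, and ZK686.6 flanked an intergenic peak of 657.1 (310.8 in replicate 1 and 348.4 in replicate 2) that lay 5634 bp from mab-5. A peak of 156.1 in the promoter window of snu-23 was 6404 bp away. The nearest conservative peak to egl-5 was at the promoter of the ribosomal protein gene rpl-35, 37542 bp off, with a signal value of 3565.8. For php-3 it was at the promoter of the Arp2/3 complex gene arx-3, 15573 bp off, with 196.9, and the same peak was 19148 bp from nob-1.

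Genes that work with, upstream or downstream of Hox genes were counted in 3 lists. Of 31 genes, 9 had a conservative promoter peak, against the 14.6% of all genes given above. Of 5 PBC and MEIS cofactor genes, 1 did. This was unc-62, the MEIS homologue, with a peak of 149.3 on chromosome V whose summit was 32 bp upstream. Replicate 1 had 56.9 there and replicate 2 had 91.1. The PBC gene ceh-20 had 2 conservative summits within 5 kb and none at its promoter.

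Of 15 genes described as regulators of Hox expression, 8 had a promoter peak, against 14.6% of all protein-coding genes. The highest was at mes-2, the E(z) homologue of the worm Polycomb-like complex, at 5366.6, with 2807.6 in replicate 1 and 2589.0 in replicate 2. Its partner mes-6 had a low one of 177.9, with 74.3 in replicate 1 and 94.2 in replicate 2, and mes-3 had none. sop-2 and sor-1, needed to keep Hox genes silent outside their domains, also had promoter peaks. That of sop-2 was at 184.8 (93.0 in replicate 1 and 90.8 in replicate 2) and that of sor-1 at 356.4 (188.8 in replicate 1 and 152.2 in replicate 2). egl-27, an MTA-like gene, had 551.8, with 264.5 in replicate 1 and 276.9 in replicate 2. mau-2, a cohesin loader gene, had 577.6, with 317.3 in replicate 1 and 267.2 in replicate 2. pal-1, the caudal homologue, had 2 weak peaks, the higher at 111.5 with its summit 1 bp upstream. pop-1, the TCF gene of Wnt signalling, had 143.5. Neither value was from a peak found in a replicate's own thresholded list. Summits were 495 bp upstream at sor-1, 350 bp at pop-1 and 340 bp at mau-2. They were nearer to the 5′ end at the other regulators, taking the higher peak at pal-1.

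Of 11 genes described as Hox targets, 0 had a conservative promoter peak, against 14.6% of all protein-coding genes. Candidates at the promoter were found at egl-18 and elt-6, neighbouring GATA factor genes, and at no other gene of the list, so at 2 of 11, against 34.8% of all protein-coding genes. No candidate within 5 kb was found for 6 of the 11, namely eff-1, egl-1, lag-2, mig-13, cwn-1 and vab-7, against 40.7% of all protein-coding genes. These lists are short and were drawn up with results of these data known, so the counts are descriptions.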

How the data were processed

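LIN-38-EGFP was immunoprecipitated from whole L4 larvae in 2 biological replicates of 1 group. The authors deposited 8 peak lists on ce11, per the labels: a ranked and a thresholded list for each replicate, and 4 lists made from both. The aligner and peak caller, not given in the sources used here, could change peak heights. Each peak has a deposited signal value of unstated scaling, a deposited score (a scaled IDR, at least 830 in the thresholded lists) and, in the ranked lists, a deposited −log10 of the global IDR. Depth is unknown. Of the ranked series peaks that reach this score, 29 were not in the conservative list.

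Summits were placed on Ensembl release 115 genes (WBcel235, the assembly of ce11; no peak passed a chromosome end) with Python 3.11.15. Mitochondrial peaks (26) were left out of the conservative list. The 4 per-input signal columns of the series ranked lists were not used. Replicate values are from the overlapping peak (at least 1 bp) with the nearest summit. Members, gene lists and patterns were chosen with earlier results of these data known, so no test was run and counts stand beside those over all genes. Named were all members, each conservative peak within 5 kb, each member's strongest candidates and each listed gene with a conservative promoter peak; other genes were named after their values were seen.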

Additional observations from a re-analysis of the deposited data

How the results depend on the processing

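The count of Hox genes with a promoter peak was 0 under all alternatives run: the other thresholded series list, the upper part of the signal values, each replicate's list alone, overlap of the whole peak, both other promoter windows and nearest-end assignment. The count with a summit within 5 kb, and the number of such summits, moved from 1 and 1 to 2 and 2 in the other thresholded series list, to 0 and 0 with peaks above the median signal value or within 2 kb, and to 2 and 4 within 10 kb. Leaving out a replicate gave 1 to 2 genes and 1 to 2 summits; the egl-5 site made the difference and was only in replicate 2's list. In the window from 200 bp upstream to 100 bp downstream, 1 Hox gene had a promoter candidate in place of 2. Of the 34 candidates, 2 reached the 10th percentile of the conservative list, and merging overlapping ones left 23; these settings were chosen after seeing the data. Cofactor, regulator and target genes with a promoter peak numbered 6 to 10 over their alternatives, against 9. No paired analysis was possible because there is 1 group. Depth is unknown, so what it limits was not measured.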
